A study of Mus musculus with 6 samples.

Results

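Transcripts of the Rab3 and Rab27 machinery that brings insulin granules to the plasma membrane were measured in MIN6, a mouse insulinoma line that secretes insulin. The 10 genes were Rab3a, Rab3b, Rab3d, Rab27a, Sytl4, Exph5, Rph3al, Doc2b, Cadps and Cadps2. Every probe set that the array's annotation gives to only 1 of these genes was taken, whatever its values, which gave 20 of the 45101 probe sets on the array, and 10 of the 18193 genes with such a probe set. Of these, 17 passed a filter on low signal and represented 9 genes. Cadps2 had no probe set above it.

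All 6 arrays came from MIN6 cells electroporated with 100 pmol of siRNA, by a pulse of 1200 V for 20 ms. On 3 arrays the siRNA was a control, and on the other 3 it was directed against TDP-43, which the gene Tardbp encodes and which binds RNA. Control and knockdown cells thus both carry a transfected siRNA and the electroporation, and they differ in the siRNA sequence, a sequence not given in the labels. The line grows as a tumour-derived population in culture and stands for beta cells only to that extent. Separate cultures for the replicates are not stated, so p-values measure only the spread between these arrays, which may be technical.

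Rab3 and Rab27 proteins are small GTPases that sit on secretory granules while they carry GTP. In that state they recruit effectors, which link the granule to syntaxin, Munc18 and the cell cortex. Docking is followed by priming, in which CAPS and Munc13 proteins ready the fusion machinery, and by fusion when calcium rises. In beta cells this pathway sets how many insulin granules wait at the membrane. The question put to these arrays was whether its transcripts changed after siRNA against TDP-43 in cells whose insulin secretion was under study.

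Signals are MAS5 values on a linear scale, and a signal is compared only with the same probe set on other arrays, since the brightness of different probe sets depends on their probes. A difference is the mean log2 value after TDP-43 siRNA minus that of the control arrays, taken after adding 12 to each signal. This understates changes of dim probe sets. The siRNA target was lower on all 5 probe sets of Tardbp. Its brightest probe set was at -0.85 (SE 0.09, limma adjusted p = 0.00216, 3 arrays per group), the smallest fall of the 5. The dimmer ones ran from -0.86 to -1.41. These are RNA values, and the TDP-43 protein was not measured on the arrays. Across genes, the correlation between any pair of arrays was 0.985 to 0.991. Control replicate 3 stood apart from the other control arrays in Ldha, lactate dehydrogenase A, with a signal of 4780 where control replicates 1 and 2 had 1829 and 1884 and TDP-43 siRNA arrays had 4353 to 4547. Of 27022 probe sets tested, 35 rose and 123 fell, together 158. Without control replicate 3 the number was 325, and higher calls were then the more numerous, 177 against 148. Without both arrays numbered 3 there were 131 higher and 110 lower. Without any single other array the total lay between 56 and 77, most of them lower. Of the 8 beta cell markers with a probe set, all 8 passed the filter, with summed signals of 79168 to 84659 in control arrays and 78452 to 84974 after TDP-43 siRNA. For alpha, delta, PP and epsilon cells, 5 of 8 markers passed and the sums were 32066 to 34350 and 29509 to 32338. Most of that signal came from Ttr (20776 to 23853 over the arrays) and Gcg (7345 to 10654). Acinar and duct markers passed for 4 of 8 genes, with sums of 5830 to 6532 and 5294 to 6437, most of it from Krt7 (4821 to 6108). Those of fibroblasts, endothelial and immune cells passed for 3 of 8, with sums of 226 to 330 and 233 to 315. The sums of the groups overlapped in each of these 4 lists, but a sum says little of the dim markers in it. No marker passed the test (0 of 20 by limma, where 0.626% of all genes passed). At an unadjusted p below 0.05 by limma, where 12.2% of all genes lay, Slc30a8 was higher (0.25) and Car2 (-0.76) and Col1a2 (-0.63) lower after TDP-43 siRNA. Other markers of their lists went the other way. Below 0 were 5 of 8 beta cell markers. Above 0 were 2 of 4 acinar and duct markers and 2 of 3 fibroblast, endothelial and immune markers. Sst, a delta cell marker, averaged 25.1 on the control arrays and 62.4 on the TDP-43 siRNA arrays and passed the filter only through the latter, so its p is not read. The part of these markers in the results was not tested. Ldha and these markers were singled out after their values were seen.

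Among the granule docking genes, no probe set passed the test for a change after TDP-43 siRNA (0 of 17 by limma, adjusted over all probe sets, where 0.585% of all probe sets passed). At an unadjusted p below 0.05 there were 2 of 17, 1 of Sytl4 and 1 of Doc2b, against 11.3% of all probe sets. Both of these were higher after TDP-43 siRNA. They were also the 2 probe sets whose TDP-43 siRNA arrays all lay on one side of the control arrays, a separation seen in 17.2% of all probe sets. The lowest adjusted p was 0.273, for Sytl4. Differences ran from -0.12 to 0.55, with 11 above 0 and 6 below, where 51.7% of all probe sets lay above 0. Their median was 0.10, beside 0.01 over all probe sets tested. It was 0.035 over all 20 probe sets with no filter, and 0.064 without TDP-43 siRNA replicate 2, the lowest value with 1 array left out.

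**Figure D1:**
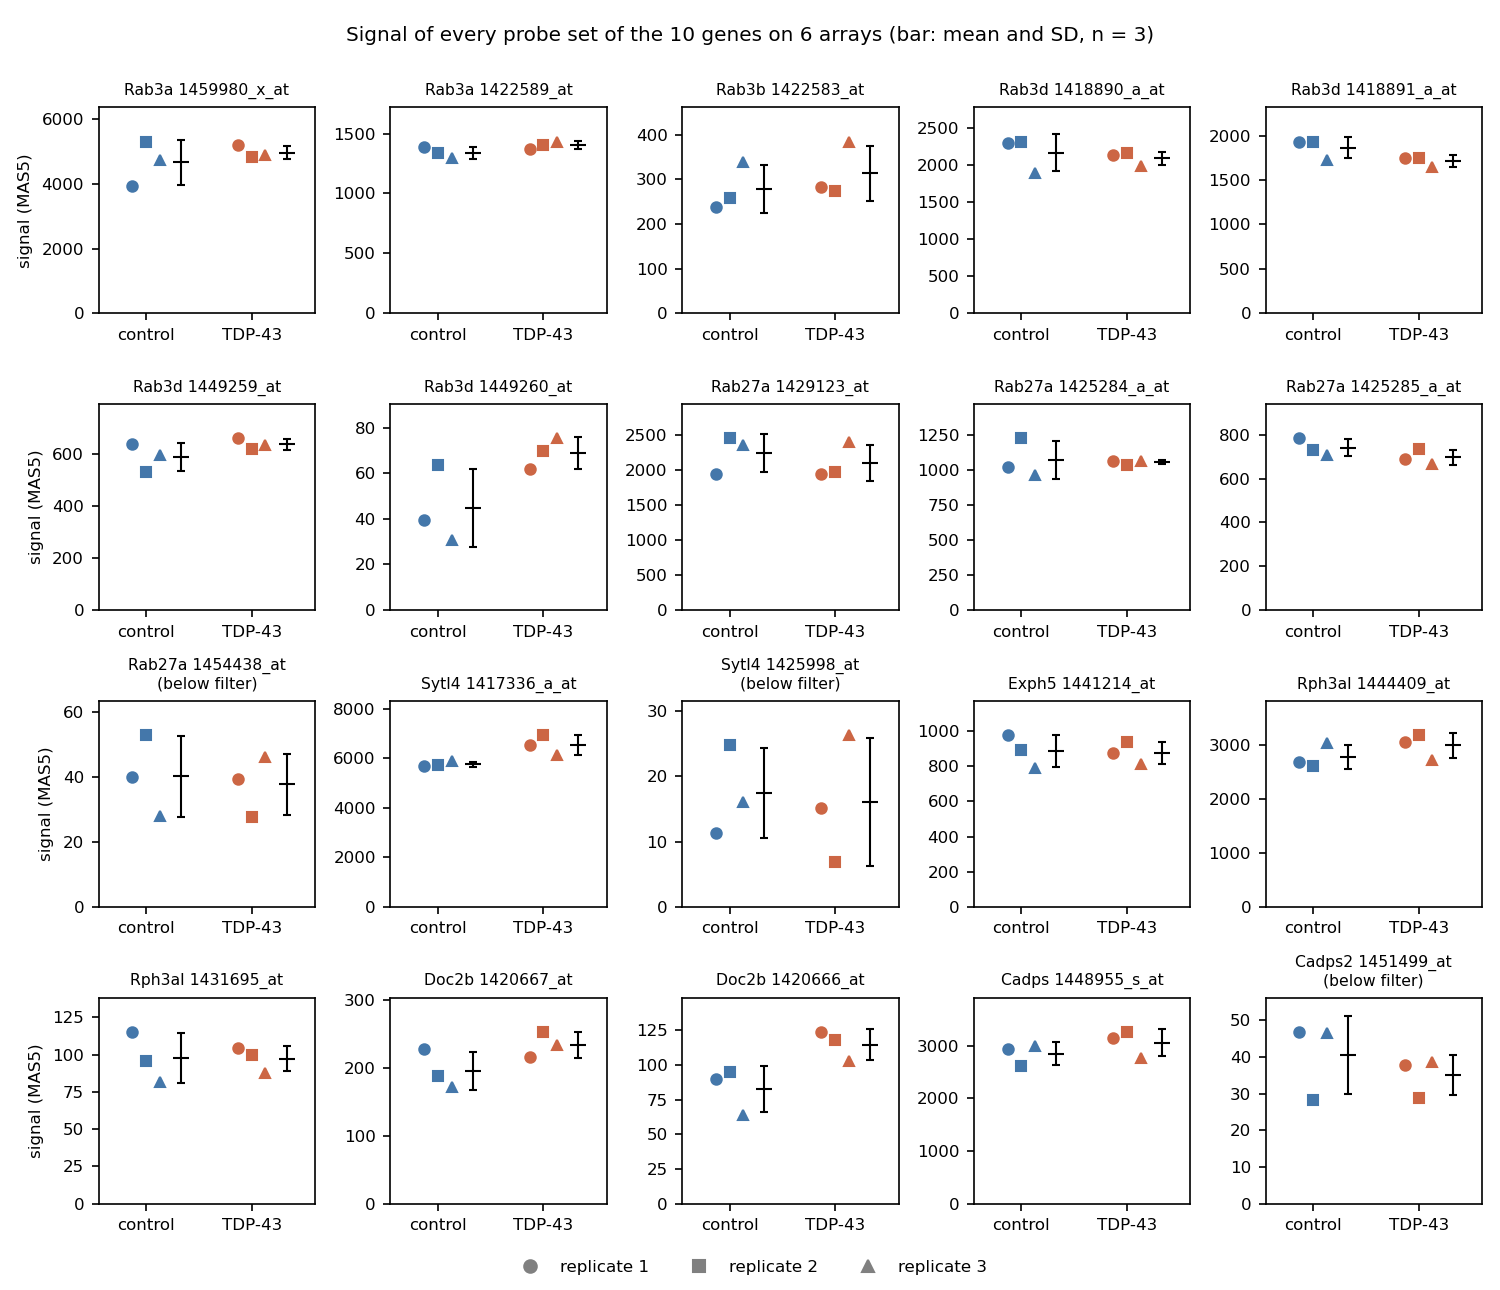
Signal of each of the 20 probe sets (vertical axis, MAS5 units, linear and starting at 0) in control and TDP-43 siRNA arrays, with a marker shape per replicate and a bar for the mean and SD of 3 arrays. The TDP-43 siRNA points lie above all control points for Sytl4 1417336_a_at (6125 to 6936 against 5683 to 5878) and Doc2b 1420666_at (103 to 124 against 64.0 to 94.9), and the groups overlap elsewhere.

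Rab3a, the Rab3 form best known from synaptic vesicles and also present on insulin granules, had 2 probe sets. On 1422589_at the control arrays read 1388, 1334 and 1293, and the TDP-43 siRNA arrays 1369, 1407 and 1433. The groups overlapped only through TDP-43 siRNA replicate 1, which lay below control replicate 1. The difference was 0.07 (SE 0.07, 95% confidence interval -0.09 to 0.22, limma adjusted p = 0.770). The brighter probe set, 1459980_x_at, has a suffix for probes that can also read other transcripts. It gave 3938, 5306 and 4747 in control arrays, and 5187, 4819 and 4878 after TDP-43 siRNA. Control arrays spanned the TDP-43 siRNA arrays on both sides, and the difference was 0.10 (SE 0.10, limma adjusted p = 0.760). Its sign rested on control replicate 1: without that array it was -0.02.

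Rab3b, a paralogue found in some endocrine cells, was read by 1422583_at alone. Control signals were 238, 259 and 340, and TDP-43 siRNA signals were 283, 274 and 384. In each group the array numbered 3 was the highest, and the groups overlapped. The difference was 0.16 (SE 0.17, 95% confidence interval -0.21 to 0.54, limma adjusted p = 0.770). Without control replicate 3 it was 0.31, and without TDP-43 siRNA replicate 3 it was 0.01, neither past the threshold.

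Rab3d, the paralogue known from zymogen and other large secretory granules, had 4 probe sets that did not all point the same way. The brightest, 1418890_a_at, gave 2299, 2313 and 1884 in control arrays and 2126, 2156 and 1990 after TDP-43 siRNA, a difference of -0.04 (SE 0.09, limma adjusted p = 0.901). On 1418891_a_at control signals were 1932, 1929 and 1726, and TDP-43 siRNA signals were 1752, 1747 and 1642, a difference of -0.12 (SE 0.07, limma adjusted p = 0.585). On both, control replicate 3 was the lowest control array and fell among or below the TDP-43 siRNA arrays. Without it the differences were -0.14 and -0.17, neither past the threshold.

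The other Rab3d probe sets lay above 0. On 1449259_at, control arrays gave 639, 533 and 596 and TDP-43 siRNA arrays 660, 618 and 634, a difference of 0.11 (SE 0.09, limma adjusted p = 0.707). Without control replicate 2, the lowest array, it was 0.045, and without control replicate 1 it was 0.17. The dimmest, 1449260_at, read 39.6, 63.7 and 30.7 in control arrays and 61.6, 69.7 and 75.2 after TDP-43 siRNA. Its difference of 0.55 (SE 0.25, limma adjusted p = 0.457) was the largest of the 17, and its 95% confidence interval from -0.02 to 1.12 was the widest. It lay close to the filter, which left out probe sets with a mean signal up to 41.5. Only control replicate 2 reached into the range of the TDP-43 siRNA arrays. Without control replicate 3 the difference was 0.37. Set against the brightest Rab3d probe set, 1449260_at differed in its change by 0.60 (SE 0.20, unadjusted p = 0.0227 by limma), which did not pass over the 10814 pairs of probe sets of the same gene (limma adjusted p = 0.617). With the mean of the 4 probe sets, Rab3d was at 0.13 (SE 0.09, limma adjusted p = 0.605 over genes), so the sign for the gene depended on how its probe sets were combined.

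Rab27a, the GTPase that recruits granuphilin to insulin granules, had differences below 0 on its 3 measured probe sets, none past the test. The brightest, 1429123_at, gave 1940, 2450 and 2353 in control arrays and 1942, 1971 and 2395 after TDP-43 siRNA, so both groups covered nearly the same range. The difference was -0.10 (SE 0.11, limma adjusted p = 0.794). On 1425284_a_at control signals were 1023, 1226 and 964, and TDP-43 siRNA signals were 1063, 1040 and 1068. The 3 TDP-43 siRNA arrays lay within the control range, with a difference of -0.01 (SE 0.10, limma adjusted p = 0.982). On 1425285_a_at control signals were 783, 732 and 708 against 688, 733 and 669, a difference of -0.09 (SE 0.08, limma adjusted p = 0.755). Averaged over the 3 probe sets, Rab27a was at -0.06 (95% confidence interval -0.22 to 0.09, limma adjusted p = 0.761 over genes). The other probe set, 1454438_at, was below the filter, with signals from 27.6 to 52.8 over the 6 arrays.

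Sytl4 encodes granuphilin, the Rab27a and Rab3 effector that binds syntaxin and Munc18 and docks insulin granules. Its probe set 1417336_a_at gave 5683, 5738 and 5878 in control arrays, 5766 ± 100.4 (SD, n = 3). After TDP-43 siRNA it gave 6550, 6936 and 6125, 6537 ± 406 (SD, n = 3). All 3 TDP-43 siRNA arrays were above all 3 control arrays, and the TDP-43 siRNA arrays were the more spread out. The difference was 0.18 (SE 0.06), a 1.13-fold higher signal with a 95% confidence interval from 1.03 to 1.24. The unadjusted p was 0.0125, and the value did not pass after adjustment (limma adjusted p = 0.273). Over 18 other ways to process the data or choose arrays, the difference lay between 0.14 and 0.24 and the adjusted p between 0.139 and 0.617. The unadjusted p stayed below 0.05 in 16 of the 18, the exceptions being the fit without TDP-43 siRNA replicate 2 and the one without an intensity trend. A second probe set, 1425998_at, was below the filter on signals from 6.84 to 26.3.

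The genes whose signal followed Sytl4 most closely over the 6 arrays were Fam217b (Pearson r = 0.994), Plekha8 (0.988) and Pdgfa (0.987), the last a platelet-derived growth factor chain. With 6 arrays and 12618 genes searched, 29 genes had r of at least 0.95. The points share the 2 groups, so a difference between them in the same direction in both genes adds to r. Sytl4 and the named genes shared an order within the TDP-43 siRNA arrays, with replicate 2 the highest and replicate 3 the lowest. These genes were picked by r over the same arrays, so the shared order is not a separate result. What lies behind these correlations was not tested.

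Exph5, the Rab27 effector exophilin 5 or Slac2-b, gave 977, 893 and 793 on 1441214_at in control arrays and 874, 936 and 811 after TDP-43 siRNA. Every TDP-43 siRNA array lay inside the control range. The difference was -0.02 (SE 0.10, 95% confidence interval -0.24 to 0.20, limma adjusted p = 0.961). It turned to 0.05 without control replicate 1 and to 0.03 without TDP-43 siRNA replicate 3.

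Rph3al encodes Noc2, an effector of Rab3 and Rab27 that lacks the C2 domains of rabphilin and is required for normal regulated secretion in endocrine cells. Its brighter probe set, 1444409_at, gave 2681, 2618 and 3034 in control arrays and 3070, 3186 and 2735 after TDP-43 siRNA. TDP-43 siRNA replicates 1 and 2 were above all control arrays, whereas TDP-43 siRNA replicate 3 fell below control replicate 3. The difference was 0.11 (SE 0.08, limma adjusted p = 0.667). It was 0.064 without TDP-43 siRNA replicate 2, 0.068 without control replicate 2, and 0.17 with TDP-43 siRNA replicate 3 or control replicate 3 alone left out. With both of these left out it was 0.24 (limma adjusted p = 0.162). The dimmer probe set, 1431695_at, read 115, 96.0 and 81.9 in control arrays and 104, 99.8 and 87.7 after TDP-43 siRNA, a difference of 0.00 (SE 0.18, limma adjusted p = 0.998). The difference between these probe sets in their change was -0.11 (SE 0.19, limma adjusted p = 0.9997 over pairs).

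Doc2b encodes a protein with a pair of C2 domains that binds calcium, syntaxin and Munc18 and takes part in granule fusion in beta cells. On 1420667_at control signals were 228, 188 and 172, and TDP-43 siRNA signals were 216, 253 and 233. Control replicate 1 lay above TDP-43 siRNA replicate 1, so the groups overlapped. The difference was 0.25 (SE 0.14, limma adjusted p = 0.534). Without control replicate 3 it was 0.17.

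The dimmer probe set of Doc2b, 1420666_at, gave 89.5, 94.9 and 64.0 in control arrays, 82.8 ± 16.5 (SD, n = 3). After TDP-43 siRNA it gave 124, 118 and 103, 115 ± 10.9 (SD, n = 3). All TDP-43 siRNA arrays were above the control arrays, the nearest being TDP-43 siRNA replicate 3 and control replicate 2. The difference was 0.43 (SE 0.19), 1.35-fold with a 95% confidence interval from 1.01 to 1.80. The unadjusted p was 0.0439 and the limma adjusted p was 0.426. Without control replicate 3, the lowest array, it was 0.28, with limma adjusted p = 0.548. The unadjusted p stayed below 0.05 in 9 of the 15 alternatives that kept this probe set. The 2 probe sets of Doc2b did not differ in their change past the threshold (0.18, SE 0.14, limma adjusted p = 0.957 over pairs). Their mean gave 0.34 (95% confidence interval 0.03 to 0.65, unadjusted p = 0.0329, limma adjusted p = 0.363 over genes).

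Doc2b and Rph3al are neighbours in the mouse genome, with 0 genes annotated between them in the RefSeq table of GRCm38.p6. Side by side, their brightest probe sets were at 0.25 and 0.11. Their dimmer probe sets were at 0.43 and 0.00.

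Cadps, the CAPS1 protein that primes dense-core granules, was read by 1448955_s_at, whose suffix marks probes that may read more than 1 transcript. Control signals were 2944, 2604 and 2994, and TDP-43 siRNA signals were 3136, 3256 and 2761. As for Rph3al, TDP-43 siRNA replicates 1 and 2 lay above all control arrays and TDP-43 siRNA replicate 3 lay below control replicate 3. The difference was 0.10 (SE 0.08, limma adjusted p = 0.711). It was 0.036 without control replicate 2, 0.050 without TDP-43 siRNA replicate 2, and 0.17 without TDP-43 siRNA replicate 3. With both arrays numbered 3 left out it was 0.21 (limma adjusted p = 0.314). Cadps2, the second CAPS gene, gave 46.8, 28.4 and 46.6 in control arrays and 37.9, 28.9 and 38.6 after TDP-43 siRNA. These signals were below the filter, so no difference was tested.

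**Figure D2:**
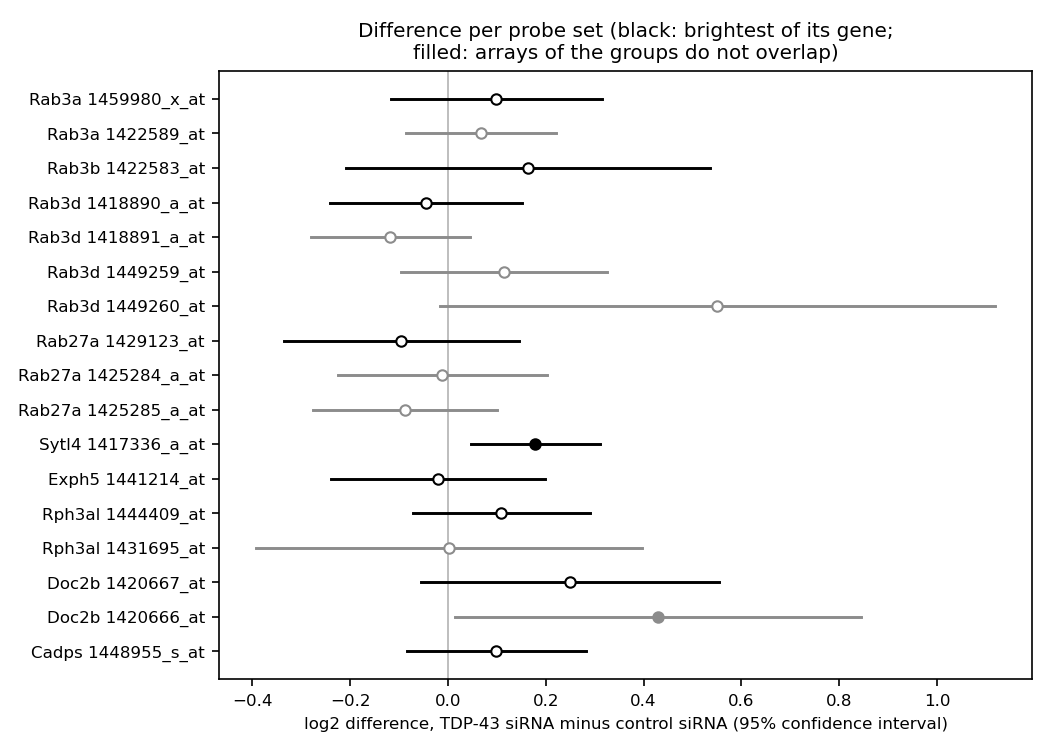
Log2 difference between TDP-43 siRNA and control arrays (horizontal axis) for the 17 probe sets past the filter, each with its unadjusted 95% confidence interval. Intervals leave out 0 for Sytl4 1417336_a_at (0.05 to 0.31) and Doc2b 1420666_at (0.01 to 0.85), and the widest belongs to Rab3d 1449260_at (-0.02 to 1.12).

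The precision of these values sets which changes the arrays could show. On the brightest probe set of each of the 9 genes, the 95% confidence intervals together reached from 0.79-fold for Rab27a to 1.47-fold for Doc2b. Changes in signal beyond these bounds lie outside the intervals of these probe sets. The narrowest interval was that of Sytl4, at 0.13 on either side of the log2 difference, and the widest among the brightest probe sets was that of Rab3b, at 0.37. Control arrays varied by 1.74% around their mean for Sytl4 (coefficient of variation) and by 38.1% for the dim Rab3d probe set 1449260_at. None of the 8 comparisons between probe sets of the same gene passed (0 by limma, 1 at an unadjusted p below 0.05), as none of the 10814 pairs on the array did, a share of 0%, with 6.99% at an unadjusted p below 0.05.

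Leaving out single arrays turned the sign of some small differences. Of the 17 probe sets, 12 kept their sign in every alternative that held them. The other 5 were the 1459980_x_at probe set of Rab3a, 1418890_a_at of Rab3d, 1425284_a_at of Rab27a, 1441214_at of Exph5 and 1431695_at of Rph3al, each within 0.10 of 0 with all 6 arrays. None of the 17 passed in any of the 18 alternatives, and the lowest adjusted p among them was 0.139, for Sytl4 without both arrays numbered 3.

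**Figure D3:**
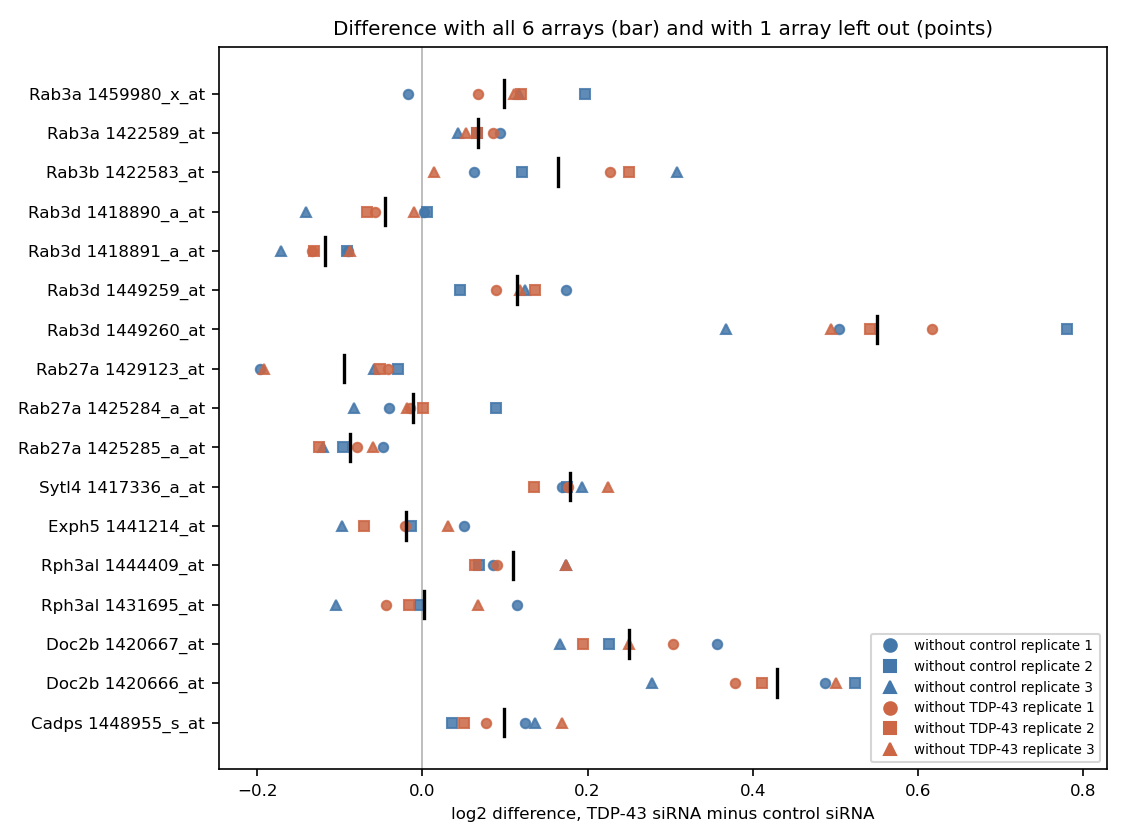
Log2 difference between TDP-43 siRNA and control arrays (horizontal axis) of each probe set with all 6 arrays (black bar) and with 1 array left out (points, colour for the group and shape for the replicate left out). Sytl4 1417336_a_at stays between 0.14 and 0.22, whereas Rab3d 1449260_at ranges from 0.37 to 0.78 and Doc2b 1420666_at from 0.28 to 0.52.

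The wider pathway was read from 4 gene lists, each gene by its brightest probe set. Of 60 genes measured, 0 passed by limma over all probe sets, where 0.626% of all genes did, and 2 had an unadjusted p below 0.05, against 12.2% of all genes. Both were higher after TDP-43 siRNA, Rabif and Rab5b.

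Paralogues of Rab3 and Rab27 and their other effectors had 12 measured genes of 19 listed, with 0 higher and 0 lower past the test and a median of 0.06. Beside these, Rims1, Sytl1, Sytl2, Doc2a and Doc2g were below the filter. Unc13d, the Munc13-4 effector of Rab27, was at 0.40 (SE 0.23, limma adjusted p = 0.560). Rims2, a Rab3 effector of the active zone, was at -0.10 (SE 0.08, limma adjusted p = 0.668). The groups did not overlap for Unc13d or for Rims2, 2 of the 12 genes, beside 2310 of all 12619 genes. Myrip, which links Rab27a to myosin, was at 0.11 (SE 0.11, limma adjusted p = 0.754). Rab27b, the close paralogue of Rab27a, was at 0.05, and Rab3c was also at 0.05. These 2 were picked as paralogues after their values were seen. Rab27b was read by 1443764_x_at, with signals of 38.5 to 94.3 and a suffix for probes that can also read other transcripts.

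Regulators of the Rab cycle had 14 measured genes of 16 listed, with 0 past the test in either direction and a median of 0.03. Rabif, which binds nucleotide-free Rabs, was read by 1419927_s_at, whose suffix marks probes that may read more than 1 transcript. It gave 1174, 1233 and 1012 in control arrays and 1332, 1496 and 1542 after TDP-43 siRNA. The groups did not overlap, as for 2310 of all 12619 genes. The difference was 0.35 (SE 0.09, unadjusted p = 0.00399, limma adjusted p = 0.175). Tbc1d10b, a Rab GTPase-activating protein, was at 0.12, and Rabggtb, a subunit of the enzyme that adds lipid anchors to Rabs, was at 0.08. Madd, the exchange factor that loads Rab3 and Rab27 with GTP, was at 0.02, and the GTPase-activating pair Rab3gap1 and Rab3gap2 were at -0.01 and -0.07; these 3 were picked for their role after the values were seen.

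Partners at the plasma membrane had 14 measured genes of 16 listed, none past the test in either direction, with a median of 0.04. Myo5a, the myosin that moves granules through the cortex, was at 0.16 (SE 0.08, limma adjusted p = 0.531), the syntaxin Stx2 at 0.19 (SE 0.11, limma adjusted p = 0.574) and the Munc18 form Stxbp3 at 0.16 (SE 0.12, limma adjusted p = 0.657). Stx1a, the syntaxin that granuphilin binds, was at 0.01 and was picked after its value was seen. Its probe set, 1437390_x_at, has the suffix for probes that can also read other transcripts.

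Other Rabs of the secretory and endosomal pathways were all measured, 20 of 20 listed, and 0 passed, with a median of 0.07. Rab5b, an early endosome Rab, gave 227, 310 and 277 in control arrays and 399, 416 and 326 after TDP-43 siRNA, without overlap. The groups did not overlap for 4 of the 20 genes, Rab8b and Rab39b among them, beside 2310 of all 12619 genes. The difference of Rab5b was 0.47 (SE 0.14, unadjusted p = 0.00762, limma adjusted p = 0.226). Rab8b was at 0.16 (SE 0.08, limma adjusted p = 0.486) and Rab39b at 0.13 (SE 0.07, limma adjusted p = 0.506). Over all genes the median was 0.02.

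**Figure D4:**
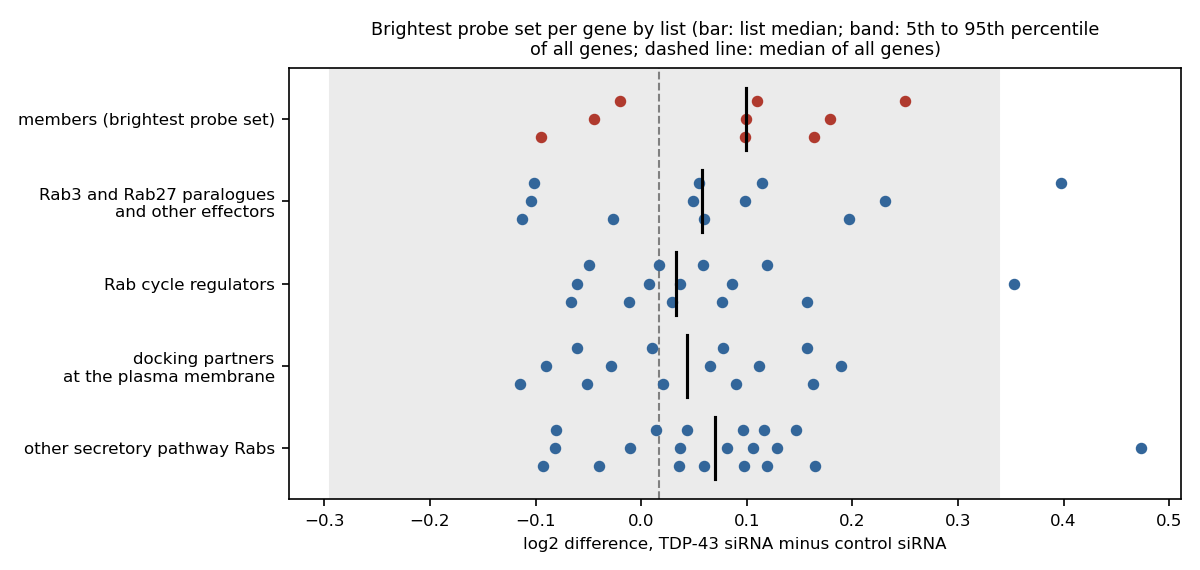
Log2 difference between TDP-43 siRNA and control arrays (horizontal axis) of the brightest probe set of each gene, for the 9 measured docking genes and the 4 pathway lists, with a bar for each list's median and a grey band from the 5th to the 95th percentile of all genes (-0.29 to 0.34). All docking genes lie inside the band; Unc13d, Rabif and Rab5b lie outside it.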

How the data were processed

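Per the submitters' processing notes, MAS5 was used by the authors, who deposited 1 signal intensity per probe set and array on a linear scale. As checked on the values, the 2% trimmed mean was 500.003 on every array. RNA (100 ng) was labelled by a 3' in vitro transcription kit, per the labels' protocols. Detection calls were not used here. The platform annotation gave 34945 probe sets 1 gene, 932 several and 9160 none, beside 64 control probe sets. Symbols were updated by Entrez number through RefSeq (34741 matched).

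The value 12 (the table's 20th percentile) was added before log2. Control probe sets and the 40% with the lowest mean signal were left out. The 27022 that remained, 12619 genes by their brightest probe set, were fitted by limma 3.58.1 under R 4.3.3 (eBayes with an intensity trend, two-sided, Benjamini-Hochberg over all probe sets, threshold 0.05). The fits were run on simulated data with known differences and independent noise for each probe set and array. Correlations between arrays, as described below, were not simulated. Figures used matplotlib 3.10.9. Named are all probe sets of the 10 genes, Tardbp, genes past the threshold or else the 3 with the smallest p in each pathway list, and the 3 genes most correlated with Sytl4; exceptions are stated. Genes and lists were chosen with earlier results of these data known. Alternatives were other pseudocounts, filters, normalizations, variance models, probe set summaries, a replicate block and arrays left out.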

Additional observations from a re-analysis of the deposited data

How the results depend on the processing

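No docking gene and no pathway list gene passed the threshold in any alternative (limma). At an unadjusted p below 0.05 by limma there were 0 to 3 docking probe sets and 2 to 6 list genes. The lowest docking count was 0 of 17 without TDP-43 siRNA replicate 2, beside 2788 of all 27022 probe sets. Quantile normalization gave 3 of 17, beside 3102 of 27022. List genes were 2 of 60 with the brightest probe set per gene, beside 1593 of 12619 genes. With probe sets averaged per gene they were 6 of 60, beside 1545 of 12619. The difference between the probe sets of one docking gene gave 0 calls in the alternatives run for it (no intensity trend, the replicate block and each single array left out). The count over all probe sets of 158 became 69 with no filter, 94 with the brightest probe set per gene, 61 with probe sets averaged per gene, 241 without both arrays numbered 3, 0 without an intensity trend (2896 at an unadjusted p below 0.05 by limma) and 56 to 325 with 1 array left out, the highest without control replicate 3. Tardbp stayed at -0.85 without the trend but did not pass (limma adjusted p = 0.0964). The causes were not tested.

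The sign turned in 13 cases, none past the threshold. In 1 of these cases the mean of the 4 Rab3d probe sets, at 0.13, was set against 1418890_a_at alone, at -0.04. Rph3al 1431695_at was at -0.040 without both arrays numbered 3. With 1 array left out the ranges were -0.098 to 0.050 for Exph5, -0.083 to 0.089 for Rab27a 1425284_a_at, -0.017 to 0.20 for Rab3a 1459980_x_at, -0.14 to 0.0057 for Rab3d 1418890_a_at and -0.10 to 0.11 for Rph3al 1431695_at.

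The shared replicate numbers were not taken as pairs: deviations of same-numbered arrays correlated at -0.12, -0.14 and 0.24. Control replicate 1 correlated best with TDP-43 siRNA replicate 2 (0.23), and control replicate 2 with TDP-43 siRNA replicate 1 (0.30). The remaining pairs of unlike number lay between -0.18 and -0.08. A fit with the replicate block, which pairs arrays by number, gave 156 probe sets and 0 docking genes, with Sytl4 at a limma adjusted p of 0.291. No fit paired the arrays in the way they correlated, and what lies behind these correlations was not tested. The number of arrays limits the precision.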
